A study of Homo sapiens with 10 samples.

Results

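The 10 genes described here encode transcription factors that drive epithelial-mesenchymal transition (EMT): the Snail family genes SNAI1, SNAI2 (whose product is called Slug) and SNAI3, the Twist genes TWIST1 and TWIST2, the ZEB genes ZEB1 and ZEB2, the E-protein genes TCF3 and TCF4, and the forkhead gene FOXQ1. They were given as a list of symbols, and every probe set annotated to a listed symbol was taken. Each of the 10 genes had 1 probe set, so 10 of the 16098 probe sets with a named gene, and 10 of 14884 named genes, were members. TCF3 and TCF4 were matched by Entrez identifier, since the same names are also used informally for the Wnt effector genes TCF7L1 and TCF7L2, which were not taken.

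The samples were 5 arrays of parental MCF10A cells, wild type for H2A.X, and 5 arrays of MCF10A cells knocked out for the H2A.X gene. MCF10A is an established, immortalised human breast epithelial cell line. Both groups had the same medium with 5% horse serum, 500 ng/ml hydrocortisone, 20 ng/ml EGF, 100 ng/ml cholera toxin and 10 ug/ml insulin, and were harvested after 48 h. Per the series title, the study asked how Twist1 and Slug take part in the EMT linked to H2A.X. The labels do not say how the gene was disrupted, whether the knockout cells were 1 clone or several, or whether the 5 samples of a group were separate cultures, so p-values here reflect only how much these arrays scatter, and that scatter may be technical. No treatment, time course or batch is named in the labels.

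EMT is the change of polarised, tightly joined epithelial cells into motile cells with a mesenchymal shape. Snail and ZEB proteins are zinc finger repressors that bind E-box sequences in the promoters of epithelial junction genes, while Twist proteins are basic helix-loop-helix (bHLH) factors that bind E-boxes as dimers with E-proteins such as those of TCF3, TCF4 and TCF12. In breast epithelium Slug is also a normal factor of basal and progenitor cells, and microRNAs of the miR-200 family and miR-205 repress ZEB1 and ZEB2.

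Signals are log2 values, so a difference of 1 is a 2-fold change of signal. Array medians lay between 4.26 and 4.35 in all 10 arrays. Of 5 measured mammary basal epithelium markers 4 rose, led by KRT14 (from 8.26 to 10.85) and KRT5 (from 9.57 to 10.34), and their summed linear signal was 3645 to 3912 in parental and 6743 to 7387 in knockout arrays. Of 11 measured luminal markers 4 fell and 0 rose (36.4%, 7 did not pass in limma), led by XBP1 (-1.87) and KRT18 (-0.94). The call of FOXA1, among the 4, held in 3 of 10 fits with 1 array left out. The summed signal of the 11 was 2843 to 3169 in parental and 1356 to 1529 in knockout arrays. Their median difference was only 0.01, and 7 lay at or under the 95th percentile of the background reference genes described below. The linear sum therefore follows the brighter genes. Over all genes 34.3% passed, 15.3% upward and 19.0% downward, so the luminal share was near that of all genes. In a fit of genes above the median of gene means 62.3% passed. The part of these shifts in the factors' differences was not tested. The receptor genes ESR1 and PGR were at 3.94 and 2.86 in parental cells. The targeted gene was not analysed here, so the labels were not checked against it.

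In knockout cells SNAI2, TCF4, ZEB2 and FOXQ1 rose and TWIST2 fell. FOXQ1 had the largest difference of the 10, 0.98 ± 0.09 (SE), or 1.98-fold (95% interval 1.74 to 2.25). TWIST1 was 0.25 ± 0.13 higher in the knockout mean and did not pass the test, and its knockout arrays were the most scattered of any member's. SNAI1, SNAI3, ZEB1 and TCF3 did not pass either. A gene passed at an adjusted p under 0.05 in limma's moderated test over all 14884 genes, where 34.3% of genes passed, 15.3% upward and 19.0% downward. Among the members 5 of 10 passed, 4 upward and 1 downward, with a median difference of 0.19 against 0.00 over all genes. In whole cultures, fewer expressing cells and less RNA per cell cannot be told apart.

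**Figure D1:**
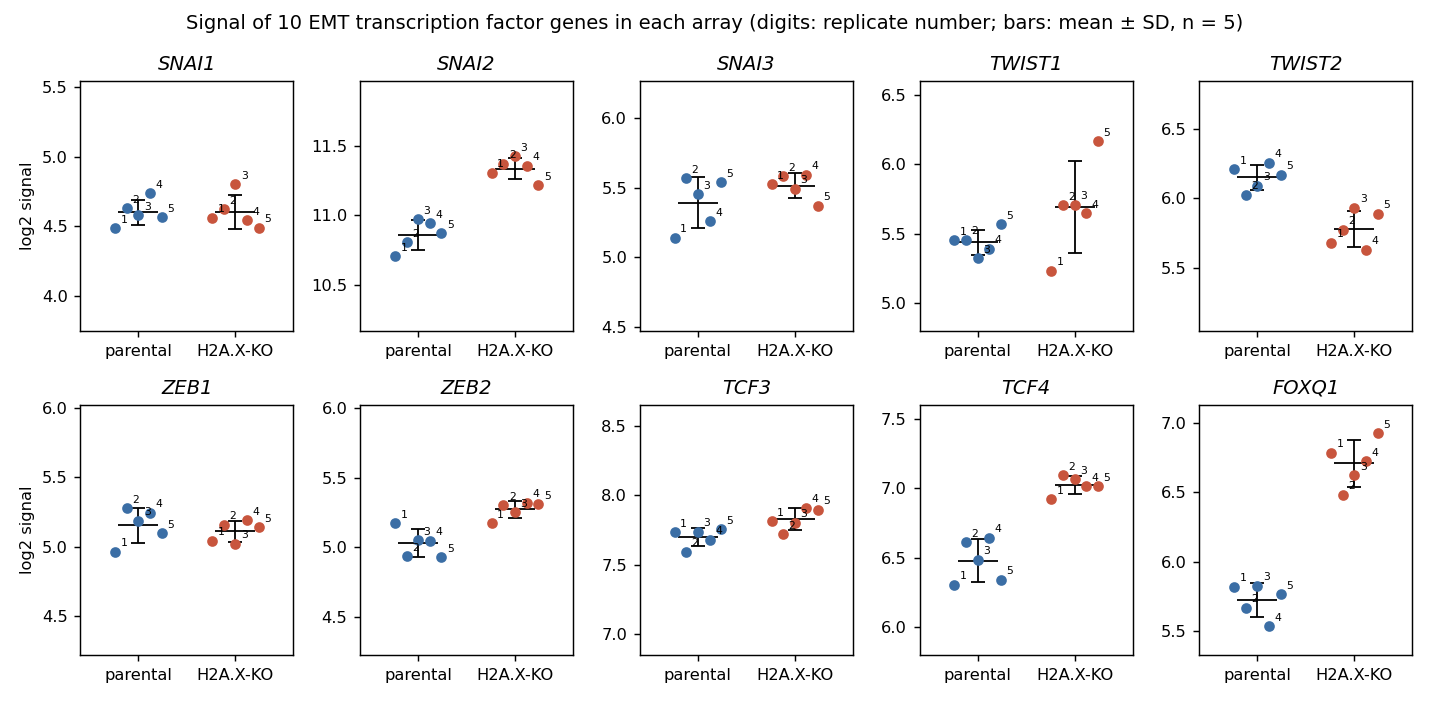
Log2 signal of each of the 10 EMT transcription factor genes (1 panel per gene, every panel spanning 1.8 log2 units) in parental arrays (blue) and H2A.X-KO arrays (red), with the replicate number beside each point and bars for the mean ± SD (n = 5). The knockout points of SNAI2, TCF4 and FOXQ1 lie above, and those of TWIST2 below, every parental point, while the knockout points of TWIST1 run from 5.23 to 6.17.

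The sequences that bear on these genes come from RefSeq tables on GRCh38.p14, which hold start sites for 6 of the 10 members, 21 start sites in all. The windows shown are the 250 bases before the annotated start of FOXQ1, which rose most, of ZEB2, which also rose, and of TWIST2, the member that fell, each 5′ to 3′ on the gene's strand. Capitals mark E-boxes, that is CANNTG, the same on both strands, the letters bound by Snail, Twist, ZEB and E-proteins.
FOXQ1 (chr6:1311848-1312097, plus strand): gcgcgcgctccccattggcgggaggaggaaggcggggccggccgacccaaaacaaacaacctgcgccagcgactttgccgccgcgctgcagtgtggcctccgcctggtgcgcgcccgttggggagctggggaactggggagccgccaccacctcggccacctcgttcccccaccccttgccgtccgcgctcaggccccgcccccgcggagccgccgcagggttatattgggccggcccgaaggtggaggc
ZEB2 (chr2:144520120-144520369, minus strand): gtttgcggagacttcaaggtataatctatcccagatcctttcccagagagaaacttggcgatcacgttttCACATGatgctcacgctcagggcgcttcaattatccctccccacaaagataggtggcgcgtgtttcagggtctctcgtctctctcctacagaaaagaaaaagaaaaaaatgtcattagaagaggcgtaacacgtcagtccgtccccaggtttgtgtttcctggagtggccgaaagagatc
TWIST2 (chr2:238847835-238848084, plus strand): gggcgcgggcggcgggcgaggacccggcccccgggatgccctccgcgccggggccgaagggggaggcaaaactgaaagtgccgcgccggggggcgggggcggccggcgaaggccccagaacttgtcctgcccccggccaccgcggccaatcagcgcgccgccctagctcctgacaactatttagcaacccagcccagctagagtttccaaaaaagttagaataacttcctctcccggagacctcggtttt
The ZEB2 window holds 1 match, CACATG, which begins 180 bases before the start, and the FOXQ1 and TWIST2 windows hold 0. Of 35116 promoter windows of this length 61.8% hold at least 1 CANNTG, and of the 21 member windows 10 do. The narrower form CAGGTG or CACCTG (the same site read on either strand, and a subset of CANNTG), which Snail and ZEB proteins favour, is in 17.5% of all windows and in 2 of the 21, both upstream of ZEB1. These matches describe letters only.

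The microRNA sequences are shown because they are the known regulators of ZEB1 and ZEB2, of which ZEB2 rose here, and because the family splits by its seed. Capitals mark the seed, bases 2 to 8, in RefSeq's mature sequences.
hsa-miR-200b-3p (chr1:1167160-1167181, plus strand): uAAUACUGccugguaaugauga
hsa-miR-200c-3p (chr12:6963742-6963764, plus strand): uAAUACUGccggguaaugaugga
hsa-miR-429 (chr1:1169055-1169076, plus strand): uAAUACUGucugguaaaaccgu
hsa-miR-200a-3p (chr1:1167916-1167937, plus strand): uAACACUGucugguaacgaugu
hsa-miR-141-3p (chr12:6964155-6964176, plus strand): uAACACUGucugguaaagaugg
hsa-miR-205-5p (chr1:209432166-209432187, plus strand): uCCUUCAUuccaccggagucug
The first 3 share the seed AAUACUG, miR-200a and miR-141 share AACACUG, and miR-205 has CCUUCAU. Their genes' array signals are given with the other regulators.

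Among the Snail genes SNAI2 was the member that rose. Its parental arrays were at 10.71, 10.81, 10.97, 10.94 and 10.87, and its knockout arrays at 11.31, 11.37, 11.43, 11.36 and 11.22. All 5 knockout arrays lay above all 5 parental arrays, a separation seen in 28.2% of all genes. The means were 10.86 ± 0.11 and 11.34 ± 0.08 (SD, n = 5 each), 1.39-fold apart (95% interval 1.26 to 1.53; probe set 17077004; limma, adjusted p = 6.88e-05). Over the 252 exact two-sided permutations of the arrays p was 0.00794, the smallest that 5 against 5 allow.

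SNAI1, which encodes Snail, was at 4.49, 4.63, 4.58, 4.73 and 4.56 in parental cells and at 4.56, 4.62, 4.80, 4.54 and 4.49 in knockout cells. The groups overlapped throughout. The difference was 0.00 ± 0.07 (SE; limma, adjusted p = 0.977), with a 95% interval of -0.15 to 0.16, and its sign turned under quantile normalisation and under median centring. SNAI3, a less studied Snail relative, ran from 5.14 to 5.57 in parental and from 5.37 to 5.59 in knockout arrays, with a difference of 0.12 ± 0.09 (SE; limma, adjusted p = 0.326; 95% interval -0.06 to 0.31). The long noncoding gene SNAI3-AS1, its neighbour in the annotation and named as its antisense gene, rose by 0.57 ± 0.11 (SE; limma, adjusted p = 0.00110), from 4.78 to 5.35. Whether both probe sets share target sequence is not given in the sources used here.

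Between the Twist genes, TWIST2 fell and TWIST1 did not pass. TWIST1 was at 5.45, 5.46, 5.33, 5.39 and 5.57 in parental arrays, and at 5.23, 5.71, 5.71, 5.65 and 6.17 in knockout arrays 1 to 5. Of the 5 knockout arrays 4 lay above every parental array, and knockout array 1 lay below every one. The means were 5.44 ± 0.09 and 5.69 ± 0.33 (SD, n = 5 each; probe set 17055614), and the difference of 0.25 did not pass (limma, adjusted p = 0.168; 95% interval -0.03 to 0.54; exact permutation p = 0.135). The knockout SD was 3.65 times the parental SD and lay at percentile 97.1 of knockout SDs over all genes, while the parental SD lay at percentile 37.2.

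Knockout array 1, which had the lowest weight of the 10 arrays in limma's estimate of array quality (0.48, against 0.82 to 1.40), decided whether TWIST1 passed. Without it the difference was 0.37 (limma, adjusted p = 0.0144). Without knockout array 5, which held the highest TWIST1 value and had the next lowest weight (0.82), it was 0.14 (adjusted p = 0.357). Without both arrays, an alternative chosen after seeing the data, the remaining 3 knockout arrays gave 0.25 (adjusted p = 0.0144). Leaving out the lowest value, or the lowest and the highest, narrows the scatter by itself, so no conclusion is drawn from either pass. With all arrays kept and weighted by quality the difference was 0.29 (adjusted p = 0.0523).

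TWIST2, which encodes a close relative of Twist1, was at 6.21, 6.03, 6.09, 6.26 and 6.17 in parental arrays. Its knockout arrays were at 5.68, 5.77, 5.93, 5.63 and 5.89, all below every parental array. It fell by 0.37 ± 0.07 (SE) on the log2 scale, from 6.15 ± 0.09 to 5.78 ± 0.13 (SD, n = 5 each; probe set 16893143; limma, adjusted p = 0.00126). The exact permutation p was 0.00794.

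The ZEB genes were both dim. ZEB2 was at 5.18, 4.94, 5.05, 5.05 and 4.93 in parental arrays and at 5.17, 5.30, 5.25, 5.32 and 5.31 in knockout arrays. Apart from knockout array 1, which lay just under parental array 1, the knockout arrays were all higher. ZEB2 rose by 0.24 ± 0.06 (SE), or 1.18-fold (probe set 16903356; limma, adjusted p = 0.00688; exact permutation p = 0.0159). ZEB1 was at 4.97, 5.28, 5.19, 5.24 and 5.10 in parental arrays and at 5.04, 5.16, 5.02, 5.19 and 5.14 in knockout arrays, which lay inside the parental range. Its difference was -0.04 ± 0.07 (SE; limma, adjusted p = 0.699), with a 95% interval of -0.19 to 0.11.

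The E-protein genes encode the partners with which Twist proteins pair. TCF4 was at 6.31, 6.61, 6.49, 6.64 and 6.34 in parental arrays and at 6.92, 7.10, 7.06, 7.01 and 7.01 in knockout arrays, with no overlap. It rose by 0.54 ± 0.07 (SE), or 1.46-fold (95% interval 1.30 to 1.63; probe set 16855382; limma, adjusted p = 6.96e-05). RefSeq's table gives TCF4 10 start sites, and its single probe set does not tell the transcripts apart. TCF3, whose gene gives the E12 and E47 proteins, was at 7.73, 7.59, 7.74, 7.68 and 7.76 in parental arrays and at 7.81, 7.72, 7.80, 7.91 and 7.90 in knockout arrays, of which 4 lay above every parental array. Its difference of 0.13 ± 0.06 (SE) did not pass over all genes (limma, adjusted p = 0.108; exact permutation p = 0.0317). It did pass among the 7442 genes above the median of gene means (adjusted p = 0.0453) and after subtraction of a background signal (adjusted p = 0.0440).

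FOXQ1 encodes a forkhead factor known to induce EMT in breast cells. Its parental arrays were at 5.82, 5.67, 5.83, 5.53 and 5.76, and its knockout arrays at 6.78, 6.48, 6.62, 6.72 and 6.92. Every one of the latter exceeded the highest parental value. The absolute difference lay at percentile 97.1 of all genes (probe set 17004194; limma, adjusted p = 1.45e-06). Over the alternative settings the log2 difference ran from 0.89 to 1.20, the highest after background subtraction.

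**Figure D2:**
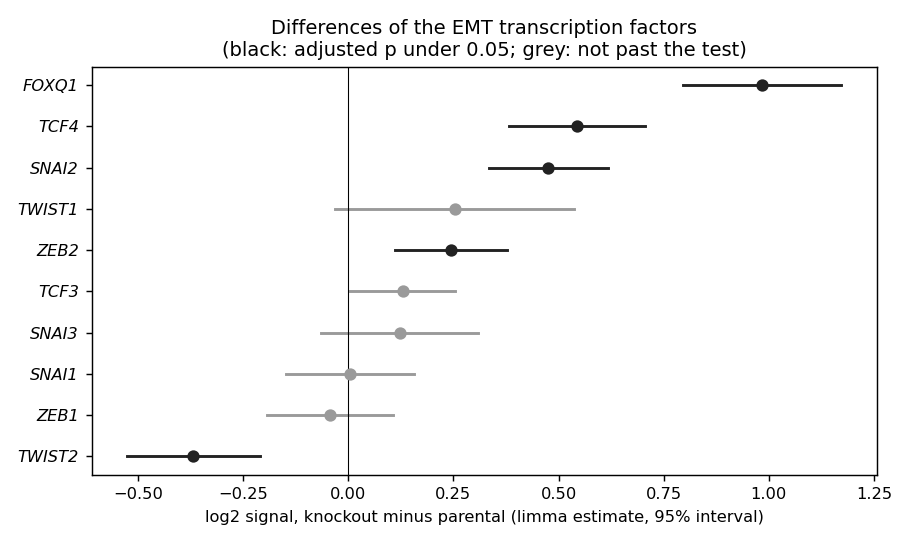
Log2 difference of each EMT transcription factor, knockout minus parental (limma estimate, with lines for the 95% interval), with genes past an adjusted p of 0.05 in black and the others in grey. FOXQ1 lies at 0.98, TCF4, SNAI2 and ZEB2 between 0.24 and 0.54 and TWIST2 at -0.37, while the interval of TWIST1 runs from -0.03 to 0.54.

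Related genes were next set against each other within each array, as the log2 ratio of their signals. A ratio of this kind does not move with an array's scaling, and shows only that the genes changed unequally. Its level compares different probe sets, so only its change is read. Of 4 pairs compared by the exact two-sided permutation test, with Benjamini-Hochberg adjustment over the 4, all passed with all arrays in. Ratios of other gene pairs were not tested, so no share over all pairs stands beside this count. Among single genes 34.3% passed in limma and 28.2% had groups without overlap. An exact p of 0.00794 is the smallest that 5 against 5 allow, and restates that the groups do not overlap. The log2 ratio of TWIST1 over TWIST2 was -0.71 ± 0.12 in parental and -0.09 ± 0.27 in knockout arrays (SD, n = 5 each). Although TWIST1 alone overlapped between the groups, this ratio did not. Its highest parental value was -0.57 and its lowest knockout value -0.45, and it rose by 0.62 ± 0.13 (SE; exact permutation p = 0.00794, adjusted p = 0.0106). Both genes were dim, and the fall of TWIST2 made up 0.37 of the change.

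The log2 ratio of SNAI2 over SNAI1 adds nothing to the rise of SNAI2 (0.48), since SNAI1 differed by 0.00 and in both groups lay far below (at -1.57 relative to) the 95th percentile of the background reference genes described next. It rose by 0.47 ± 0.05 (SE), from 6.26 ± 0.09 to 6.73 ± 0.07 (SD, n = 5 each; exact permutation, adjusted p = 0.0106). That of TCF4 over TCF3 rose by 0.41 ± 0.11 (SE), from -1.22 ± 0.21 to -0.81 ± 0.12 (exact permutation, adjusted p = 0.0106). Neither ratio overlapped between the groups. The ratio of ZEB2 over ZEB1 rose by 0.29 ± 0.09 (SE), from -0.13 ± 0.20 to 0.16 ± 0.04 (exact permutation, adjusted p = 0.0397). Both ZEB genes lay below the same percentile. Parental array 1, at 0.21, lay inside the knockout range of 0.13 to 0.23, and the ZEB call ended when any single array other than parental array 1 was left out (adjusted p of 0.0635 to 0.0794). Without parental array 1 the change was 0.37 (adjusted p = 0.0159).

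**Figure D3:**
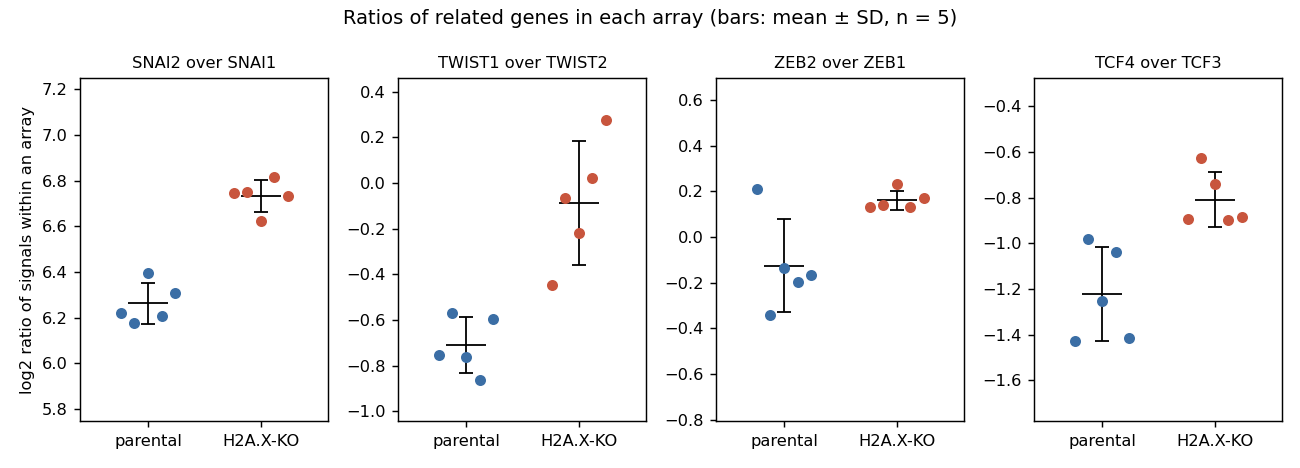
Log2 ratio of the signals of 4 pairs of related genes within each array (1 panel per pair, every panel spanning 1.5 log2 units), in parental (blue) and H2A.X-KO (red) arrays, with bars for the mean ± SD (n = 5). The groups do not overlap for SNAI2 over SNAI1, TWIST1 over TWIST2 and TCF4 over TCF3, and parental array 1 overlaps the knockout arrays for ZEB2 over ZEB1.

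The table has no detection call, so the distance of each member from background was judged against genes of hair, testis and sensory families, which breast epithelium is not known to use. These were 105 genes (85 KRTAP, 14 PRAMEF, 5 VN1R and 1 OR). Their mean signals had a median of 3.68 and a 95th percentile of 6.17, and 5 of them (4.76%) passed the test. Probe sets differ in affinity, so this is a rough limit and gives no order of expression between genes.

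SNAI2, TCF3 and TCF4 lay above that 95th percentile in both groups, SNAI2 by 4.69 in parental and 5.17 in knockout cells. FOXQ1 crossed it, from 0.45 below in parental cells to 0.54 above in knockout cells. TWIST2 was 0.02 below it in parental cells and 0.39 below in knockout cells. TWIST1 lay 0.73 below in parental and 0.48 below in knockout cells, and SNAI1, SNAI3, ZEB1 and ZEB2 also stayed below in both. SNAI1, ZEB1 and ZEB2 had signals under 5.49, the median over all genes, in parental and knockout cells alike. When the reference families' median was subtracted from each array, an alternative chosen after seeing the data, FOXQ1 rose by 1.20, ZEB2 by 0.41 and TCF4 by 0.62, and TWIST2 fell by 0.45. TWIST1 was then at 0.35 and did not pass (adjusted p = 0.274).

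**Figure D4:**
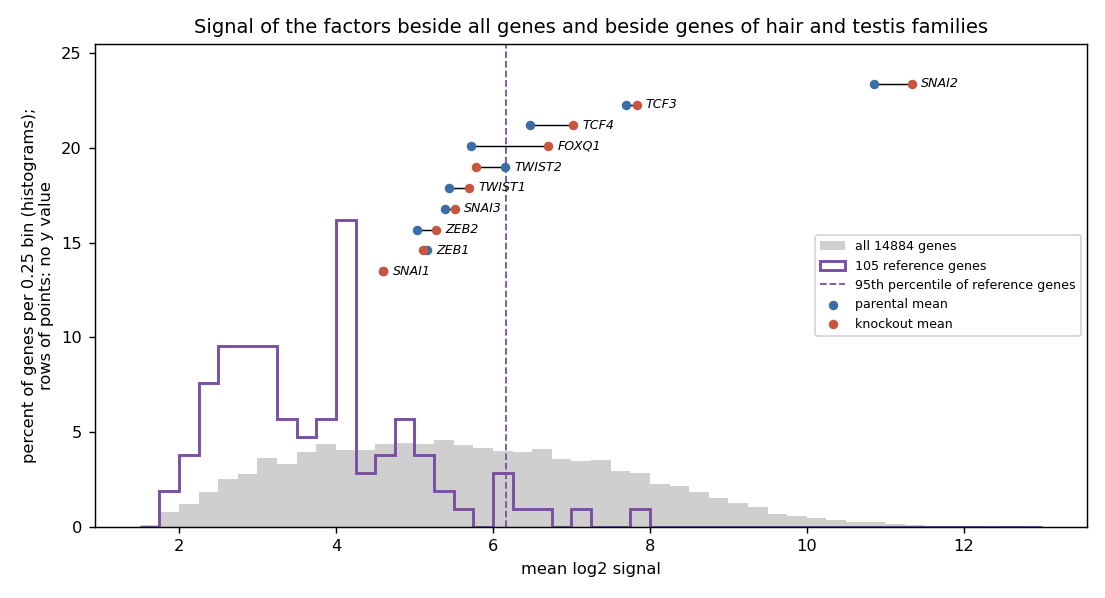
Mean log2 signal of the 10 factors (points joined by a line, blue for parental and red for knockout, 1 row per gene) above histograms of the mean signal of all 14884 genes (grey) and of 105 reference genes of hair, testis and sensory families (purple outline), as percent of genes per 0.25 bin. The dashed line marks the 95th percentile of the reference genes at 6.17, with SNAI2, TCF3 and TCF4 to its right in both groups.

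The genes beside each member on its chromosome were also examined. Among up to 10 measured genes on either side of each member, the median difference lay between -0.11 and 0.03 for all members except SNAI1. For SNAI2 it was 0.00, with 2 rises and 2 falls among 20 neighbours, and for FOXQ1 -0.11 with 4 and 4 of 15. For TCF4 it was -0.03 with 3 and 5 of 20, for TWIST2 -0.03 with 3 and 4 of 20, and for SNAI3 0.03 with 6 and 4 of 20. Over all genes 15.3% rose and 19.0% fell, and 62.3% passed in a fit of genes above the median of gene means. Whether any of these counts differs from those shares was not tested. Many neighbours were dim. Over the neighbours above the median of gene means, the median was -0.19 for TWIST2 (8 genes), -0.17 for TCF4 (10 genes), -0.14 for FOXQ1 (9 genes) and 0.03 for SNAI2 (12 genes). Around SNAI1 the median was 0.15 over all neighbours and 0.41 over the 11 brighter ones, with 8 rises and 1 fall of 20, among them its nearest neighbour RNF114, a ubiquitin ligase gene, at 0.50 (limma, adjusted p = 5.04e-06).

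Over the 10 arrays, the genes whose signals followed SNAI2 most closely were PCLAF (Pearson r = 0.995), which encodes a PCNA-binding protein of replicating cells, DPY19L4 (0.987), AJUBA (0.986), ZNF581 (0.986) and the mitotic kinesin gene KIF2C (0.985). All 5 rose, PCLAF by 1.30. Those closest to TWIST1 were RBM14 (0.937), SVIL (0.920), RIC1 (0.907), PCAT6 (0.904) and TRAPPC9 (0.894), and none of these passed the test. These are the highest of 7442 genes above the median of gene means, the points share arrays and group, and the values are given as a description.

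The share of genes that passed differed with signal. Over all genes it was 34.3%, and in a fit of the 7442 genes above the median of gene means (called brighter here) it was 62.3%. The lists below are read against both shares, and none is called particular. Of 14 measured other transcription factors linked to EMT 2 rose and 3 fell (35.7%), near the share of all genes, with a median of 0.04, and 4 of the 8 brighter ones passed in that second fit. HMGA2, an architectural chromatin factor known to induce Snail and Twist genes, was at 6.07, 6.15, 5.99, 6.08 and 6.06 in parental arrays and at 6.29, 6.39, 6.51, 6.54 and 7.46 in knockout arrays 1 to 5. The groups did not overlap, and array 5 stood far above the rest. In that array TWIST1 (6.17) and FOXQ1 (6.92) were also at their highest. A link between these values was not tested. It rose by 0.56 ± 0.18 (SE; limma, adjusted p = 0.0236), and by 0.36 without array 5 (adjusted p = 0.00117). After background subtraction its adjusted p was 0.0567. TBX3, a T-box repressor, rose by 0.41. ETS1 fell by 1.09, KLF4, a factor of epithelial identity, fell by 0.48, and LEF1, a nuclear partner of beta-catenin, fell by 0.33. PRRX1 (0.05), GSC (0.11), SOX9 (0.16) and SOX4 (0.20) did not pass. The call of LEF1 ended without some single arrays (it held in 6 of 10 such fits).

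Among bHLH partners and inhibitors, TCF12, the third E-protein gene, fell where TCF4 rose. It was between 7.71 and 7.78 in parental arrays and between 6.95 and 7.07 in knockout arrays, a fall of 0.74 ± 0.05 (SE; limma, adjusted p = 1.01e-07). HEY1, a bHLH repressor downstream of Notch, fell by 0.57 at a dim signal (4.27 to 3.70). The other 4 of 6 measured members, HEYL, HAND1, HAND2 and TCF15, did not pass. The ID genes, whose products block E-proteins, were not analysed here.

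Of 20 corepressor genes 7 rose and 5 fell (60.0%), and their median difference was 0.06. All 20 lay above the median of gene means, where 13 passed in the fit of such genes (62.3% of all of them did). AJUBA, a LIM protein gene whose product bridges Snail proteins to their corepressors, rose by 0.74 ± 0.07 (SE; limma, adjusted p = 2.61e-06), from 7.67 to 8.40. KDM1A, the histone demethylase LSD1 bound by the SNAG domain, rose by 0.29, SIN3A by 0.36, WDR77, a partner of PRMT5, by 0.46 and the methyltransferase genes SUV39H1 and EHMT2 by 0.39 and 0.34. RCOR1, the CoREST partner of LSD1, fell by 0.57, EZH2, the Polycomb methyltransferase, fell by 0.87, KAT2B fell by 0.46 and NSD2 fell by 0.29. HDAC1 (0.05), HDAC2 (-0.06) and CTBP1 (0.01) did not pass. The rise of LIMD1, an AJUBA relative, by 0.20 and the fall of KAT5 by 0.19 were lost in most of the fits without 1 array.

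Of 18 genes for kinases and ubiquitin enzymes that act on Snail and Twist protein stability, 12 fell and 1 rose (72.2%), with a median of -0.25, and 13 of the 16 brighter ones passed in the fit of brighter genes. GSK3B, the kinase that marks Snail for degradation, fell by 0.27, and BTRC, the beta-TrCP ligase subunit that reads that mark, fell by 0.31. The F-box genes FBXL5 and FBXL14, whose products target Snail and Slug, fell by 0.42 and 0.32, SKP1 of the same ligase complexes fell by 0.45 at a dim signal, and FBXO11 fell by 0.21. The RING ligase genes SIAH1 and SIAH2 fell by 0.61 and 0.40, and the deubiquitinase genes USP1 and USP47 fell by 0.35 and 0.32. USP5 rose by 0.27. CUL1 (0.07), AKT1 (-0.02) and AKT2 (0.14) did not pass. These are RNA signals, and no protein was measured.

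Inducers of the factors moved both ways: of 28 measured genes 9 rose and 8 fell (60.7%), and their median difference was 0.08, with 18 of the 22 brighter ones past the test in the fit of brighter genes. NOTCH1 rose by 1.07, MYC by 0.77, the ligand gene BMP2 by 0.72, EGFR by 0.69, the Notch ligand gene JAG2 by 0.67, NOTCH2 by 0.52 and STAT3 by 0.47. The growth factor gene FGF2 fell by 1.68, the receptor gene FGFR1 fell by 0.86, EGR1 fell by 1.36, JUN fell by 0.70 and MET fell by 0.41. The calls of SMAD2 and SMAD3 held in 1 and 6 of 10 fits with 1 array left out. In those fits 15 to 18 genes of the list passed. SMAD4 (0.08), SMAD7 (-0.28) and JAG1 (-0.09) did not pass, and the TGF-beta ligand and receptor genes were not analysed here.

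Of 28 listed epithelial genes known as targets repressed by these factors, 22 were measured. Of these 9 fell and 3 rose (54.5%), the median difference was -0.12, and 14 of the 18 brighter ones passed in the fit of brighter genes. OCLN, which encodes occludin, fell by 4.73 and ESRP1, an epithelial splicing regulator, fell by 3.79, both by more than any member changed. Their knockout arrays lay within the range of the background reference genes, from 3.01 to 3.87 for OCLN and from 4.15 to 4.92 for ESRP1, so both falls are lower bounds on the size. Over the alternative settings the differences ran from -7.92 to -4.61 and from -4.87 to -3.69, the lowest after background subtraction, where the OCLN value depends on the floor. EPCAM fell by 2.14, CLDN7 fell by 1.64 and ST14 fell by 1.36. CLDN3 (-0.09), CLDN4 (0.09) and ESRP2 (0.19) did not pass, and the desmosomal genes DSP and JUP rose by 0.53 each. The rise of LLGL2 held in only 2 of 10 fits with 1 array left out. The cadherin genes CDH1 and CDH2 were not analysed here. Of 33 listed mesenchymal genes known as induced targets, 13 were measured. Of these 5 rose and 3 fell (61.5%), the median difference was 0.11, and 7 of the 9 brighter ones passed in the fit of brighter genes. LOX rose by 1.01, CD44 by 0.50 and MMP14 by 0.49, while TNC fell by 2.44 and AXL fell by 0.49. VIM was at 8.63 ± 0.20 and 8.65 ± 0.29 (SD, n = 5 each) and FN1 at 9.57 ± 0.05 and 9.72 ± 0.09, and neither passed.

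Of 16 factors that oppose the EMT program 6 fell and 2 rose, with a median of -0.09, and 8 of the 9 brighter ones passed in the fit of brighter genes. Besides ESRP1 and KLF4, GATA3 fell by 0.44 and KLF5 fell by 0.40, whereas the ETS factor gene EHF rose by 3.05 and GRHL3 by 0.82. GRHL2 (0.06) and OVOL2 (-0.14), whose products repress ZEB1, were dim and did not pass.

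**Figure D5:**
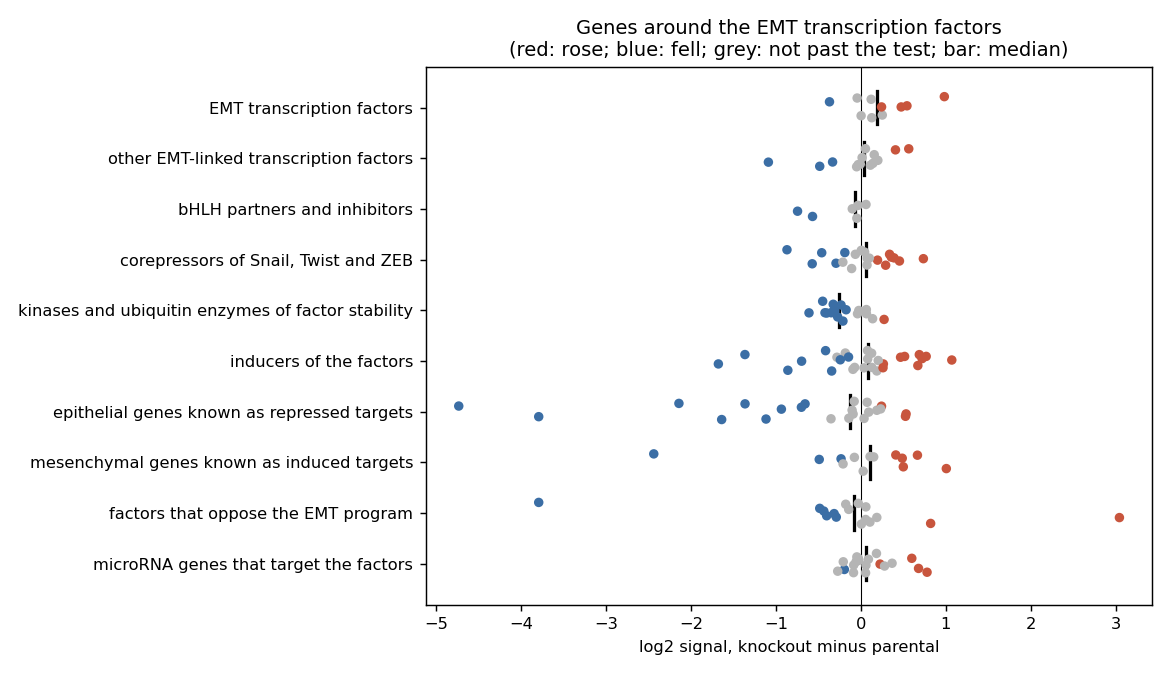
Log2 difference, knockout minus parental, of every measured gene in the list of factors and in 9 lists of genes around them (red for genes that rose, blue for genes that fell, grey for genes that did not pass the test), with a black bar at each list's median. The medians lie between -0.25, for kinases and ubiquitin enzymes of factor stability, and 0.19, for the factors themselves.

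Of 19 microRNA genes that target the factors 4 rose and 1 fell (26.3%), and only 3 in all passed without parental array 3 or without parental array 4. MIR205, whose mature sequence is shown above, was between 10.35 and 10.50 in parental arrays and between 10.92 and 11.36 in knockout arrays, and rose by 0.78 ± 0.08 (SE; limma, adjusted p = 6.32e-06). It was the single list member above the 95th percentile of the reference genes. MIR34A and MIR34C, of the family that targets SNAI1, rose by 0.60 and 0.68 at group means between 3.01 and 3.99. Of the miR-200 genes, MIR200C went from 4.99 ± 0.37 to 4.72 ± 0.37 and MIR141 from 5.35 ± 0.21 to 5.14 ± 0.43 (SD, n = 5 each), with overlapping groups, and neither passed. MIR200A (-0.08) and MIR429 (-0.02) did not pass either. MIR200B was at 4.61 and 4.84, a difference of 0.23 that passed (limma, adjusted p = 0.0234) but not under quantile normalisation, under median centring or with an intensity trend (adjusted p of 0.0552, 0.0538 and 0.0513), nor without parental array 3, 4 or 5 or knockout array 4 (adjusted p of 0.0514 to 0.0605). Expression arrays read the hairpin or its host transcript, not the mature microRNA.

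Markers of fibroblasts, a mesenchymal cell type, moved both ways between the groups. Of 9 measured fibroblast markers 5 rose, led by DCN (from 4.06 to 6.11), and 2, APOD and DPT, fell (77.8%, against 34.3% of all genes). Both falls held in all 10 fits with 1 array left out. Of the 9 markers, 6 had mean signals at or under the 95th percentile of the reference genes. The list had 15 markers, and those not measured include the fibroblast collagen and PDGF receptor genes. The summed linear signal of the 9 was 386 to 410 in parental and 709 to 807 in knockout arrays. LUM stayed near background, at 3.17 and 3.08, and THY1 was at 5.08 and 5.19. Of 8 endothelial markers 1 rose (KDR), of 4 immune cell markers 1 rose and 2 fell, and of 5 adipocyte markers 1 fell. The summed endothelial signal was 134 to 143 in parental and 192 to 220 in knockout arrays, the immune signal 430 to 478 and 389 to 449, and the adipocyte signal 89.6 to 106 and 79.3 to 87.1. The part of these in the factors' differences was not tested.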

How the data were processed

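RNA of 10 samples was hybridised to Affymetrix arrays after oligo(dT)-primed labelling of 1 ug total RNA, per the labels' protocols. Each deposited value is the log2 signal of 1 probe set as the authors processed it. Affymetrix Expression Console and Partek 6.6 were used, per the submitters' processing notes, and how they summarised and normalised the probes is not given in the sources used here. Values ran from 1.13 to 13.87, which is how the scale was recognised as log2. For arrays, their number limits the precision, and the median standard error of a difference was 0.08.

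Of 53617 probe sets 16098 had 1 gene named by the platform annotation and 37519 had none. All 16098 matched RefSeq's gene table (GRCh38.p14) by Entrez identifier. The probe set with the highest mean stood for each gene. Differences were fitted in limma 3.58.1 (R 4.3.3; functions lmFit and eBayes), with Benjamini-Hochberg adjustment over all 14884 genes, and intervals are at 95%. Single values were also tested by exact two-sided permutation (scipy 1.17.1). The procedure was tested on simulated data. The planned background of olfactory receptor genes could not be used alone, since 1 was named, and the other families were added after seeing the data.

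The members and lists were chosen with earlier results of these data known. Lists are described by counts and medians, with no set test. Genes named are all members, up to 5 genes of each list past the test without overlap of groups, by absolute difference, and a fixed set that includes TCF12, HMGA2, VIM, FN1, GRHL2, OVOL2 and the MIR200 genes. Others were chosen after their values were seen. Alternatives were other normalisations, probe sets, filters, priors and weights, a replicate block and each array left out.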

Additional observations from a re-analysis of the deposited data

Results flagged for a closer look

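Single arrays standing apart were sought among 100 genes and 4 ratios in both groups (208 checks). The gap of the outermost array to the nearest other array was divided by the range of the group's 5 arrays. In 8 checks this quotient was above Dixon's critical value for 5 samples (0.71). Chance flags about 1 in 20 groups. No EMT transcription factor was among them. HMGA2 in knockout array 5 was at 7.46, against 6.29 to 6.54 in the other knockout arrays. MIR205 in knockout array 4 was at 10.92, against 11.25 to 11.36. TBX3 in knockout array 1 was at 6.19, against 6.43 to 6.49. FGFR1 in knockout array 4 was at 4.39, against 4.02 to 4.11. KIF2C in parental array 1 was at 6.32, against 6.58 to 6.62. The basal marker DSG3 in parental array 5 was at 10.25, against 10.37 to 10.41, and the fibroblast marker MFAP5 in parental array 1 was at 4.87, against 4.30 to 4.42. MIR200A in parental array 5 was at 4.22, against 3.86 to 3.93.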

How the results depend on the processing

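The directions and calls of SNAI2, TWIST2, TCF4 and FOXQ1 held in all 21 alternatives, and those of ZEB2 in the 20 that kept it. SNAI2 ranged from 0.44 to 0.52 and FOXQ1 from 0.89 to 1.20. The number of factors called was 5 or 6, and that of all genes 4637 to 5344. TWIST1 ran from 0.14 to 0.37 with an array left out and passed without knockout array 1. It also passed, at 0.25, without knockout arrays 1 and 5, an alternative chosen after seeing the data. Those arrays hold its lowest and highest knockout values, so leaving out either or both narrows the scatter by itself. The SNAI1 difference turned negative with quantile normalisation (-0.0219), with median centring (-0.0232) and in some fits with an array left out (-0.0459 to 0.0378). The change of the ZEB2 over ZEB1 ratio, 0.23 to 0.37 with an array left out, and 0.29 without knockout arrays 1 and 5, missed the threshold in 10 of 15 alternatives. Leaving out arrays also raises the smallest p the permutations allow. The other 3 ratios passed in all 15. Among the lists, called microRNA genes went from 5 to 3 after background subtraction and other EMT-linked factors from 5 to 3. The filter at the median of gene means kept 1 microRNA gene and 1 bHLH partner, and both passed. Some further list calls were lost in part of the 10 fits with 1 array left out. Among them, RNF111 held in 3, MMP1 in 4 and GRHL1 in 6 of these fits. The replicate numbers gave no clear pairing of the samples: 1 of 5 same-numbered pairs had deviations correlated above 0.1 (range -0.04 to 0.19). For 2 of the 5 parental arrays the best-correlated knockout array had the same number. With the replicate block 4972 genes and 5 factors were called, with TWIST1 at 0.25 (adjusted p = 0.104). The block was not run for the ratios. Signals near background limit ZEB1, ZEB2, SNAI1, SNAI3 and TWIST1 most. TWIST2 also lay below the 95th percentile of the reference genes in both groups (-0.02 in parental and -0.39 in knockout cells).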
